A study of Homo sapiens with 6 samples.

Results

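The 10 alpha and beta tubulin genes described here encode the building blocks of microtubules. They are the rows of the deposited expression table named TUBA1A, TUBA1B, TUBA1C, TUBB, TUBB2A, TUBB2B, TUBB3, TUBB4A, TUBB4B and TUBB6, and they are 10 of the 58735 genes in that table. The choice was made by gene name and used no measured value, though earlier results of these data were known when it was made. Each name matched 1 row.

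Polyadenylated RNA was sequenced from A375, an established human cutaneous melanoma cell line, in 3 samples treated with CuB (cucurbitacin B, a plant triterpenoid) and 3 samples treated with DMSO, the solvent control. Both treatments lasted 6 h. The treatment protocol states 0.2 µM CuB, whereas the names of the libraries state 100 nM, and which dose was used could not be settled. Both groups are 1 unmodified cell line. No label says that samples of a group were separate cultures, so the p-values cover the spread among these 6 samples alone, and that spread may be technical.

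An alpha and a beta tubulin form a dimer, and dimers join end to end into microtubules, which carry transport, hold cell shape and build the mitotic spindle. The isotypes of each class differ mainly in an acidic C-terminal tail, where enzymes add and remove glutamates and tyrosine. Tubulin mRNA is also under autoregulation: when free dimers are in excess, TTC5 binds the first residues of nascent tubulin chains and, through SCAPER and the CCR4-NOT deadenylase, the mRNA on that ribosome is degraded.

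The first 30 coding bases are shown because they encode the start of the chain that autoregulation reads, with the first 12 bases in capitals. All are in the sense direction, 5′ to 3′, from the GENCODE 29 transcripts on GRCh38.
TUBA1A: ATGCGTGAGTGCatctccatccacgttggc
TUBA1B: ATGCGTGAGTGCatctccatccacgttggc
TUBA1C: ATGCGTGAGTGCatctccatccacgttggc
TUBB: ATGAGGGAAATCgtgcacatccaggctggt
TUBB2A: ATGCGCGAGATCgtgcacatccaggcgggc
TUBB2B: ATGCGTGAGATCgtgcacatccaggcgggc
TUBB3: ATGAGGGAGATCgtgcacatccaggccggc
TUBB4A: ATGCGGGAGATCgtgcacctgcaggccggc
TUBB4B: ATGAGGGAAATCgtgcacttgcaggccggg
TUBB6: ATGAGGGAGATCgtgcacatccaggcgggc
The 3 alpha genes had identical letters over all 30 bases. Among the 7 beta genes the first 12 bases came in 5 spellings: TUBB shared its letters with TUBB4B, TUBB3 shared its letters with TUBB6, and TUBB2A, TUBB2B and TUBB4A each had their own.

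The last 60 coding bases before the stop codon are shown for 6 beta tubulins, the 2 with the highest levels, the closest pair and the 2 with the lowest levels with CuB, with each glutamate codon (GAA or GAG, in frame) in capitals.
TUBB: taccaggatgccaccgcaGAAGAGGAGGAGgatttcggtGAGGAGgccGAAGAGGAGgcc
TUBB4B: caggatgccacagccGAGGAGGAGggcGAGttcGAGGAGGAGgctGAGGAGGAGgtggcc
TUBB2A: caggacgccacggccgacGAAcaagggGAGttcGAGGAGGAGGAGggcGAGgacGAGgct
TUBB2B: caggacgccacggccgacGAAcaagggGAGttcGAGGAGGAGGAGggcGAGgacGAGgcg
TUBB3: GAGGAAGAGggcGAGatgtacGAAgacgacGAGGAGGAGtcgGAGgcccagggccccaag
TUBB4A: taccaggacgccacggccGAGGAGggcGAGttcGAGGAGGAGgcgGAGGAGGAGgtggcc
Of the last 20 codons, 7 in TUBB6 and 10 in TUBB4B were glutamate, the lowest and the highest numbers among the 7 beta genes. Over their whole coding sequences the 3 alpha genes were 95.9 to 97.2% identical to each other. The beta genes were 80.9 to 98.1% identical, with TUBB2A and TUBB2B the closest pair at 98.1%. An alpha and a beta gene shared 52.7 to 55.2% of their bases.

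Levels are given in FPKM, which divides a gene's fragments by its length and by the library's size, as the authors deposited them. Differences were tested with limma on log2(FPKM + 1), CuB minus DMSO, across the 13273 genes that averaged 1 FPKM or more over the 6 samples, and p-values were adjusted over all of them by the Benjamini-Hochberg method. A gene is called higher or lower where this adjusted p is under 0.05. The added 1 makes the log2 difference of a gene at low FPKM smaller than its fold change. Groups hold 3 samples each, and errors are SD unless named.

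All 10 tubulin genes were tested, of which 6 were called higher with CuB (TUBA1C, TUBB2A, TUBB2B, TUBB3, TUBB4B and TUBB6) and 2 were called lower (TUBA1A and TUBB4A). TUBA1B and TUBB were not called. Among all tested genes 22.9% were called higher and 15.6% were called lower, 38.6% in either direction. By class, 5 of the 7 beta genes and 1 of the 3 alpha genes were called higher. The median log2 difference was 0.52 over the 10 tubulins and 0.05 over all tested genes. The CuB values lay wholly above the DMSO values for 7 tubulins and wholly below them for 2, and among all tested genes this was so for 29.8% above and 21.7% below, 51.5% in all. TUBB3 and TUBB4A were each under 1 FPKM in 1 of the groups and passed the filter through the other group.

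**Figure D1:**
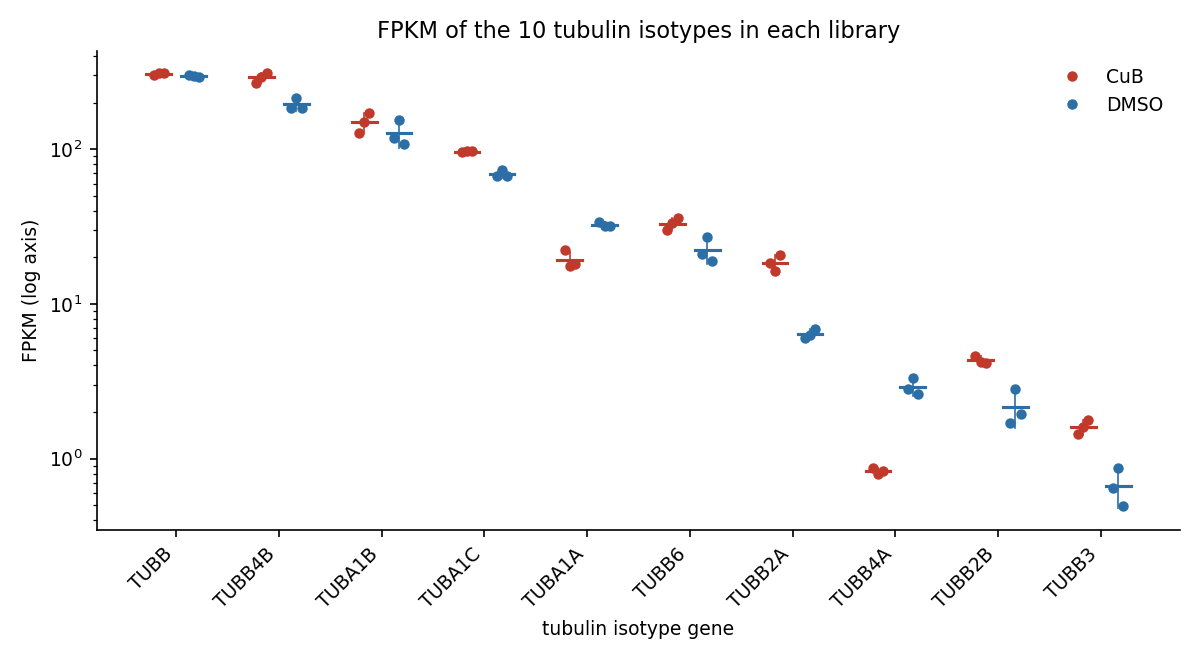
FPKM of the 10 tubulin genes in each sample on a log10 axis, CuB left of DMSO for each gene, with each point 1 sample and each bar the mean of 3. TUBB is at about 300 FPKM in both groups, while TUBB4B, TUBB2A and TUBB3 lie higher with CuB and TUBA1A and TUBB4A lower.

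The libraries held 15502971 to 16137093 fragments with CuB and 14845976 to 15797757 with DMSO, as recovered from the steps between FPKM values. The scaling matters to small differences: the library size implied by the FPKM was 0.914 to 0.927 times the fragment total with CuB and 1.03 to 1.04 times with DMSO. Of all calls, 59.5% were higher with the deposited scaling and 59.4% with median-of-ratios scaling. The share was 46.5% with each sample scaled to the same sum (TPM) and 47.2% with quantile normalization. It was 39.1% with equal fragment totals and 52.8% with a correction for GC content. The median log2 difference of all genes was -0.03 with TPM, -0.03 with quantile normalization and -0.09 with equal fragment totals. Log2 differences under those scalings are given without subtracting this median and are read beside it. For the cell type, 5 of 9 melanocyte lineage markers averaged at least 1 FPKM, and their sum was 200 to 261 FPKM with CuB and 200 to 293 FPKM with DMSO. SOX10, a neural crest and melanocyte transcription factor, averaged 218 FPKM with CuB and 198 FPKM with DMSO and was not called (adjusted p = 0.535). Among the same markers, S100B averaged 6.64 ± 0.161 FPKM with CuB and 26.4 ± 1.61 FPKM with DMSO and was called lower (log2 difference -1.84, adjusted p = 1.27e-05). S100A1 averaged 1.91 ± 0.341 FPKM with CuB and 4.80 ± 1.28 FPKM with DMSO and was called lower as well (-0.98, adjusted p = 0.0046), while the pigment genes PMEL, MLANA, TYR and DCT averaged under 1 FPKM. Markers of other cell types summed to 25.9 to 28.4 FPKM with CuB and 16.0 to 22.1 FPKM with DMSO for keratinocytes (2 of 4 at 1 FPKM or more, mostly KRT10). For leukocytes they summed to 0.52 to 1.14 FPKM with CuB and 1.62 to 1.79 FPKM with DMSO (1 of 4, with PTPRC and CD3E at or near 0). For endothelium they summed to 0.20 to 0.37 FPKM with CuB and 0.48 to 0.55 FPKM with DMSO (0 of 3), and for fibroblasts to 1.64 to 2.01 FPKM with CuB and 4.15 to 4.36 FPKM with DMSO (1 of 4). The part of these markers in the tubulin differences was not tested, and in bulk RNA fewer cells of a type and less RNA per cell cannot be told apart.

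The alpha tubulins lie within one stretch of chromosome 12, and of the 3 of them 1 was called higher, 1 lower and 1 not called. TUBA1B (chr12:49127782-49131397, minus strand, ENSG00000123416), a widely expressed alpha tubulin, had 126.5, 151 and 172 FPKM in CuB replicates 1, 2 and 3, against 118, 155 and 107.5 FPKM in DMSO replicates 1, 2 and 3. The groups overlapped, since DMSO replicate 2 was above CuB replicates 1 and 2. TUBA1B averaged 150 ± 23 FPKM with CuB and 127 ± 24.9 FPKM with DMSO, and its log2 difference of 0.25 (SE 0.16, 95% interval -0.14 to 0.63, adjusted p = 0.276) was not called. Over the alternatives run, its log2 difference ranged from 0.04 to 0.40 and it was never called. The lowest adjusted p by limma among them was 0.0528, close to the threshold.

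TUBA1C (chr12:49188736-49274603, plus strand, ENSG00000167553), a second widely expressed alpha tubulin, had 95.7, 96.8 and 97.5 FPKM in CuB replicates 1, 2 and 3, against 66.9, 73.3 and 67.1 FPKM in DMSO replicates 1, 2 and 3. All 3 CuB samples lay close together and above all 3 DMSO samples. TUBA1C averaged 96.6 ± 0.884 FPKM with CuB and 69.1 ± 3.64 FPKM with DMSO, 1.4-fold, and was called higher with a log2 difference of 0.48 (SE 0.07, 95% interval 0.32 to 0.64, adjusted p = 0.00213). It was also called higher in each of the 20 alternatives run, over a range of 0.25 (quantile normalization) to 0.52.

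TUBA1A (chr12:49184796-49189324, minus strand, ENSG00000167552), the main alpha tubulin of developing neurons, moved the other way, with 22.2, 17.5 and 18.1 FPKM in CuB replicates 1, 2 and 3, against 33.99, 31.9 and 31.85 FPKM in DMSO replicates 1, 2 and 3. Each CuB sample was below each DMSO sample. TUBA1A averaged 19.3 ± 2.53 FPKM with CuB and 32.6 ± 1.23 FPKM with DMSO, 0.591-fold, and was called lower with a log2 difference of -0.74 (SE 0.10, 95% interval -0.98 to -0.49, adjusted p = 0.00195). Its values rest on 2891 fragments with CuB and 5272 with DMSO. TUBA1A and TUBA1C lie on opposite strands and share 490 exonic bases at their ends, so with a kit that does not mark strand the fragments of those bases cannot be told apart. Of the 75-base windows of the TUBA1A transcript, 32.4% also occur in another of the tubulins described here. TUBA1B shares the most, at 22.4%, so how TUBA1A and TUBA1B share fragments is uncertain too. How the authors counted fragments that match more than 1 gene is not given in the sources used here.

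**Figure D2:**
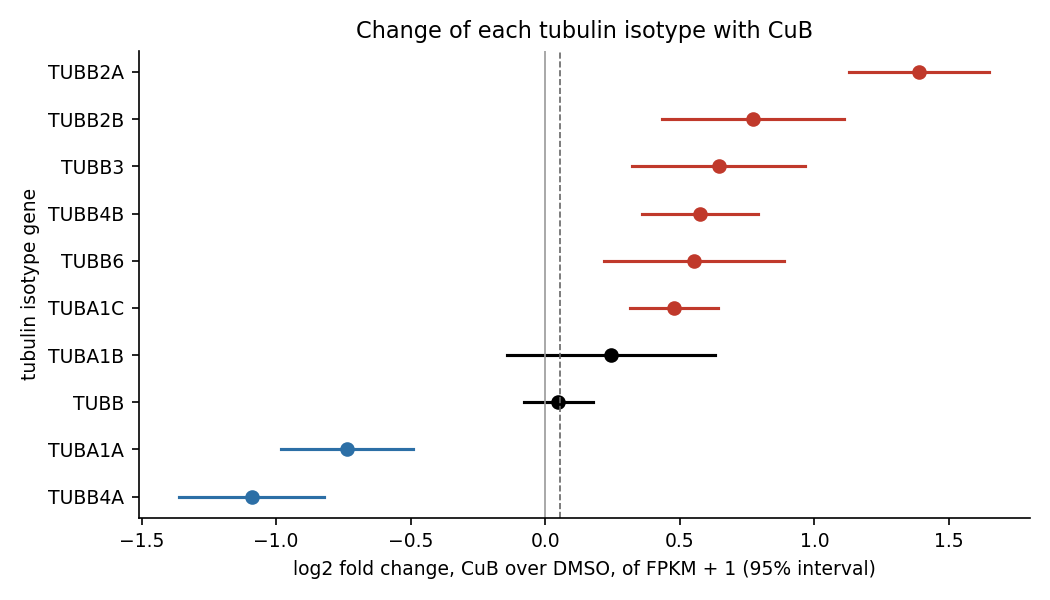
Log2 difference of FPKM + 1, CuB minus DMSO, for each tubulin gene with its 95% interval, coloured by call. The dashed line is the median of all tested genes at 0.05. TUBB2A is highest at 1.39 and TUBB4A lowest at -1.09, and the intervals of TUBB and TUBA1B cross 0.

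Of the 2 most abundant beta tubulins, TUBB was not called and TUBB4B was higher with CuB. TUBB (chr6:30720201-30725426, plus strand, ENSG00000196230), the class I beta tubulin of most dividing cells, had 304, 310 and 310.5 FPKM in CuB replicates 1, 2 and 3, against 300.4, 299.7 and 293 FPKM in DMSO replicates 1, 2 and 3. The CuB samples were all slightly above the DMSO samples. TUBB averaged 308 ± 3.83 FPKM with CuB and 298 ± 4.02 FPKM with DMSO, and its log2 difference of 0.05 (SE 0.05, 95% interval -0.08 to 0.18, adjusted p = 0.514) was not called. The sign of this small difference depended on the scaling, at -0.05 with TPM, -0.03 with quantile normalization and -0.12 with equal fragment totals, where TUBB was not called either.

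TUBB4B (chr9:137241213-137243707, plus strand, ENSG00000188229), a class IV beta tubulin found in most tissues and abundant in cilia, had 269, 291.5 and 313.5 FPKM in CuB replicates 1, 2 and 3, against 184, 216 and 186 FPKM in DMSO replicates 1, 2 and 3. No CuB sample overlapped a DMSO sample. TUBB4B averaged 291 ± 22.2 FPKM with CuB and 195.5 ± 17.8 FPKM with DMSO, 1.49-fold, and was called higher with a log2 difference of 0.57 (SE 0.09, 95% interval 0.36 to 0.79, adjusted p = 0.00318). It was called in each of the 20 alternatives run, with a log2 difference of 0.38 to 0.65.

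TUBB6 (chr18:12307669-12344320, plus strand, ENSG00000176014), the class V beta tubulin, had 29.9, 33.55 and 35.9 FPKM in CuB replicates 1, 2 and 3, against 21.01, 27.25 and 19.1 FPKM in DMSO replicates 1, 2 and 3. The CuB samples were all above the DMSO samples, the nearest pair being CuB replicate 1 and DMSO replicate 2. TUBB6 averaged 33.1 ± 3.05 FPKM with CuB and 22.45 ± 4.27 FPKM with DMSO, 1.48-fold, and was called higher with a log2 difference of 0.55 (SE 0.14, 95% interval 0.22 to 0.89, adjusted p = 0.0205). This call was lost with equal fragment totals (0.39, adjusted p = 0.0686), with quantile normalization (0.35, adjusted p = 0.0797), without a filter on low values (adjusted p = 0.0549), and without CuB replicate 2 (0.54, adjusted p = 0.0712), CuB replicate 3 (0.49, adjusted p = 0.0664), DMSO replicate 1 (0.51, adjusted p = 0.0737) or DMSO replicate 3 (adjusted p = 0.0594). TUBB6 shares 837 exonic bases with AFG3L2 on the other strand, a mitochondrial protease subunit that averaged 15.2 ± 0.687 FPKM with CuB and 12.05 ± 0.132 FPKM with DMSO. AFG3L2 was itself called higher (log2 difference 0.31, adjusted p = 0.0156), a call it lost with TPM, quantile normalization and equal fragment totals and without CuB replicate 2 or DMSO replicate 1 (adjusted p = 0.0644 to 0.0814).

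The class II pair TUBB2A and TUBB2B, beta tubulins best known from neurons, lie 66734 bases apart on chromosome 6. TUBB2A (chr6:3153669-3157526, minus strand, ENSG00000137267) had 18.5, 16.2 and 20.9 FPKM in CuB replicates 1, 2 and 3, against 6.04, 6.26 and 6.94 FPKM in DMSO replicates 1, 2 and 3. Every CuB sample was more than 2 times every DMSO sample. TUBB2A averaged 18.5 ± 2.32 FPKM with CuB and 6.41 ± 0.469 FPKM with DMSO, 2.89-fold, from 1408 fragments with CuB and 524 with DMSO. It was called higher with a log2 difference of 1.39 (SE 0.11, 95% interval 1.13 to 1.65, adjusted p = 0.00016), the largest rise among the 10 tubulins, and its range over the alternatives was 1.24 to 1.52.

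TUBB2B (chr6:3224261-3231730, minus strand, ENSG00000137285) had 4.63, 4.197 and 4.15 FPKM in CuB replicates 1, 2 and 3, against 1.69, 2.81 and 1.96 FPKM in DMSO replicates 1, 2 and 3. All CuB samples were above all DMSO samples, of which replicate 2 was the highest. TUBB2B averaged 4.325 ± 0.267 FPKM with CuB and 2.15 ± 0.585 FPKM with DMSO, 2.01-fold, from 417 fragments with CuB and 225 with DMSO, and was called higher with a log2 difference of 0.77 (SE 0.14, 95% interval 0.43 to 1.11, adjusted p = 0.00594). Of the 75-base windows of the TUBB2B transcript, 44.4% also occur in TUBB2A, and 56.8% of those of TUBB2A occur in TUBB2B, so how the 2 genes share fragments is uncertain. PSMG4, a proteasome assembly chaperone that shares 174 exonic bases with TUBB2B on the other strand, averaged 1.23 ± 0.186 FPKM with CuB and 1.37 ± 0.387 FPKM with DMSO (log2 difference -0.08, adjusted p = 0.709).

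TUBB3 (chr16:89921392-89938761, plus strand, ENSG00000258947), the class III beta tubulin used as a marker of neurons, had 1.43, 1.59 and 1.78 FPKM in CuB replicates 1, 2 and 3, against 0.647, 0.869 and 0.492 FPKM in DMSO replicates 1, 2 and 3. The levels were low in both groups, with every CuB sample above every DMSO sample. TUBB3 averaged 1.603 ± 0.174 FPKM with CuB and 0.669 ± 0.189 FPKM with DMSO, 2.4-fold, from 313 fragments with CuB and 141 with DMSO, and was called higher with a log2 difference of 0.65 (SE 0.14, 95% interval 0.32 to 0.97, adjusted p = 0.00988). At this low level its size depends on the added 1, and over the alternatives it reached 1.28, by limma-voom on recovered fragments. Of its 75-base windows, 89.2% also occur in AC092143.1, a protein-coding gene annotated on the same strand over part of TUBB3, which was listed at 0 in 4 of the 6 libraries and held 3 fragments with CuB and 1 with DMSO.

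TUBB4A (chr19:6494319-6502848, minus strand, ENSG00000104833), a class IV beta tubulin of the brain, was the beta gene that was called lower, with 0.8755, 0.795 and 0.8298 FPKM in CuB replicates 1, 2 and 3, against 2.82, 3.31 and 2.61 FPKM in DMSO replicates 1, 2 and 3. The CuB samples were tightly grouped and all far below the DMSO samples. TUBB4A averaged 0.8335 ± 0.0403 FPKM with CuB and 2.91 ± 0.363 FPKM with DMSO, 0.286-fold, from 127 fragments with CuB and 479 with DMSO. Its log2 difference was -1.09 (SE 0.11, 95% interval -1.36 to -0.82, adjusted p = 0.000508), and over the alternatives it reached -1.79, by limma-voom. TUBB4A and TUBB4B, which belong to the same class, thus had differences of opposite sign.

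**Figure D3:**
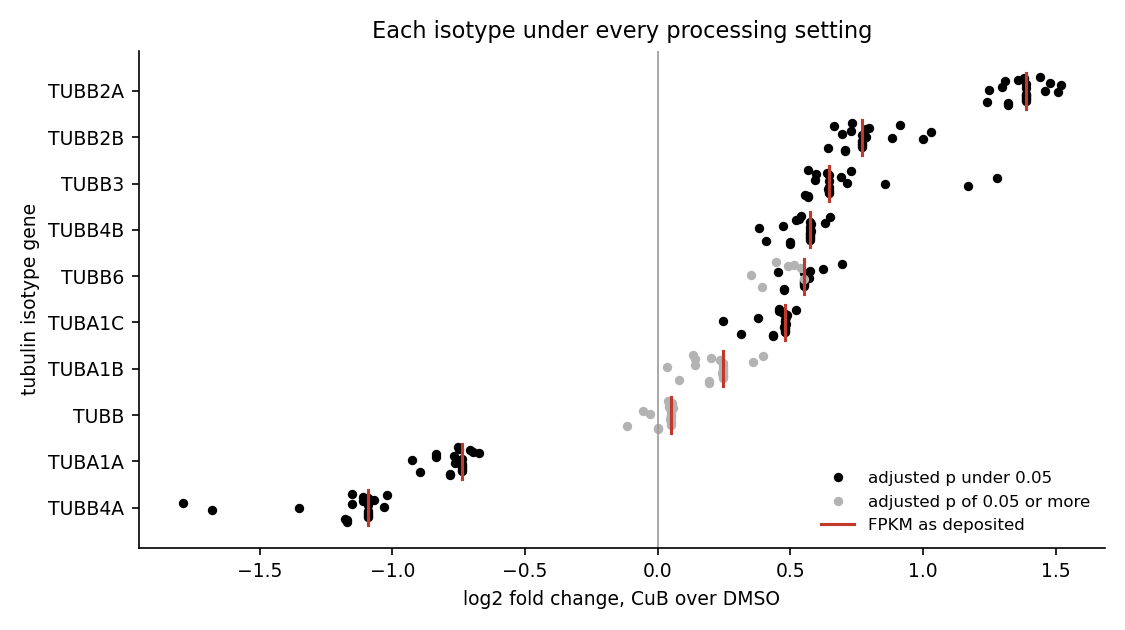
Log2 difference of each tubulin gene, CuB minus DMSO, under the deposited scaling and under each alternative, with black points where the gene was called, grey points where it was not and a bar at the deposited scaling. TUBB2A stays between 1.24 and 1.52 and TUBA1A between -0.93 and -0.68, while the points of TUBB fall on both sides of 0.

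Of the 8 called tubulins, 7 kept their call under every alternative in which they were tested, TUBB6 being the exception. TUBB2B, TUBB3 and TUBB4A fall out of the test when a mean of at least 5 FPKM is asked for. The GC content of the 10 genes ran from 51.6% in TUBA1C to 62.0% in TUBB4A, and correction for GC content changed none of the 10 calls.

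The order of levels, per length, was read within each group. With CuB it was TUBB, TUBB4B, TUBA1B, TUBA1C, TUBB6, TUBA1A, TUBB2A, TUBB2B, TUBB3 and TUBB4A, in which TUBB and TUBB4B overlapped, as did TUBA1A and TUBB2A. With DMSO it was TUBB, TUBB4B, TUBA1B, TUBA1C, TUBA1A, TUBB6, TUBB2A, TUBB4A, TUBB2B and TUBB3, in which only TUBB4A and TUBB2B overlapped. The length in the table is the union of all annotated exons, which for TUBA1B is 3574 bases where its main transcript holds 1627, so FPKM between genes depends on that choice. The order, and the shares given below, also depend on how fragments that match several genes were counted, which is not given. Of the 75-base windows, 89.2% for TUBB3 and 77.2% for TUBA1B also occur in another gene.

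Summed over the 10 genes, tubulin mRNA was 872.5, 923 and 975.5 FPKM in CuB replicates 1, 2 and 3, against 736, 816.5 and 717 FPKM in DMSO replicates 1, 2 and 3. The sums averaged 924 ± 51.5 FPKM with CuB and 756.5 ± 52.9 FPKM with DMSO, 1.22-fold, and did not overlap. An exact two-sided permutation test gave p = 0.1, the smallest that 3 against 3 can give, and 0.127 after Benjamini-Hochberg adjustment over the 14 sums and shares tested. The difference of 167 FPKM shrank to 108 FPKM with TPM, 78.9 FPKM with quantile normalization and 69.4 FPKM with equal fragment totals (exact permutation p = 0.2 each). TUBB4B made up 57.3% of the summed difference, TUBA1C 16.5% and TUBA1B 13.8%, while TUBA1A took away 13.3 FPKM.

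The beta tubulins summed to 628, 658 and 688 FPKM in the CuB samples, against 517, 556 and 510.3 FPKM in the DMSO samples, without overlap (1.25-fold, exact permutation p = 0.1, adjusted p = 0.127). The alpha tubulins summed to 244, 265 and 288 FPKM in the CuB samples, against 219, 260.2 and 206 FPKM in the DMSO samples, with overlap (1.16-fold, exact permutation p = 0.2, adjusted p = 0.215). The beta difference of 130 FPKM was 87.9 FPKM with TPM and 78.3 FPKM with quantile normalization (exact permutation p = 0.1 each), and 60.7 FPKM with equal fragment totals (p = 0.2). The alpha difference of 37.3 FPKM was 19.8 FPKM with TPM (exact permutation p = 0.4), 0.573 FPKM with quantile normalization (p = 1) and 8.74 FPKM with equal fragment totals (p = 0.8). The alpha share of the whole was 28.75 ± 0.755% with CuB and 30.15 ± 1.57% with DMSO (exact permutation p = 0.2, adjusted p = 0.215). The alpha shares of the groups overlapped.

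Shares of the summed tubulin FPKM do not move with a scaling common to all genes of a sample. TUBB made up 34.8, 33.6 and 31.8% in CuB replicates 1, 2 and 3, against 40.8, 36.7 and 40.9% in DMSO replicates 1, 2 and 3. TUBB4B made up 30.9, 31.6 and 32.1% in the CuB samples, against 25.05, 26.5 and 25.96% in the DMSO samples. The TUBB share was lower and the TUBB4B share higher in every CuB sample than in any DMSO sample. The shares of a sample add up to the whole, so they are not independent and a share can fall without its gene. The level of TUBB itself averaged 308 FPKM with CuB and 298 FPKM with DMSO and was not called. TUBB averaged 33.4 ± 1.49% with CuB and 39.5 ± 2.39% with DMSO, and TUBB4B averaged 31.5 ± 0.644% with CuB and 25.8 ± 0.716% with DMSO. Within the beta class alone TUBB held 46.9 ± 1.61% with CuB and 56.5 ± 2.27% with DMSO, and TUBB4B held 44.3 ± 1.37% with CuB and 36.99 ± 1.65% with DMSO.

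**Figure D4:**
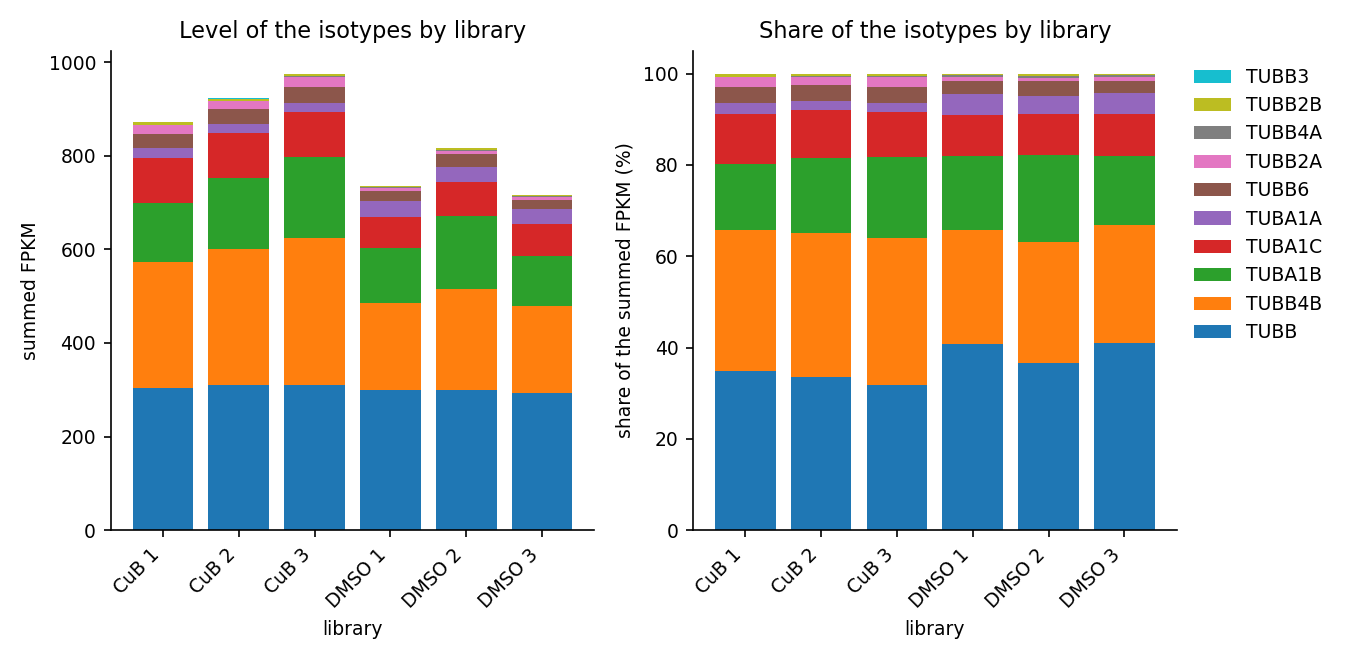
Stacked FPKM of the 10 tubulin genes in each library (left panel) and their shares of that sum in percent (right panel), CuB libraries left of DMSO libraries. TUBB holds 31.8 to 34.8% with CuB and 36.7 to 40.9% with DMSO, and TUBB4B 30.9 to 32.1% with CuB and 25.1 to 26.5% with DMSO.

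Smaller shares also lay apart between the groups. TUBA1A made up 2.097 ± 0.384% with CuB and 4.32 ± 0.371% with DMSO, TUBA1C made up 10.5 ± 0.489% with CuB and 9.14 ± 0.198% with DMSO, and TUBB2A made up 2.005 ± 0.214% with CuB and 0.851 ± 0.104% with DMSO. TUBB6 made up 3.58 ± 0.138% with CuB and 2.95 ± 0.348% with DMSO. For these 4 the groups did not overlap, and the same held for TUBB2B, TUBB3 and TUBB4A, each under 0.6% of the whole. TUBA1B made up 16.2 ± 1.6% with CuB and 16.7 ± 2.07% with DMSO, with overlapping groups (exact permutation p = 0.8), and its share is the one whose direction changed when a sample was left out. For each of the other 9 shares the exact two-sided permutation p was 0.1, the smallest possible, with an adjusted p of 0.127, so none passes 0.05.

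Promoter sequence is shown for the largest rise, the rise that weighs most in the summed level, and both falls. The windows are the 250 bases before the RefSeq transcript start on GRCh38.p14, 5′ to 3′ on the gene's strand. Capitals mark 4 motifs found on either strand. They are the CCAAT box, the cyclic AMP response element spelled TGACGTCA, the GC box spelled GGGCGG and the TATA box spelled TATAAA.
TUBB2A, chr6:3157545-3157794, minus strand: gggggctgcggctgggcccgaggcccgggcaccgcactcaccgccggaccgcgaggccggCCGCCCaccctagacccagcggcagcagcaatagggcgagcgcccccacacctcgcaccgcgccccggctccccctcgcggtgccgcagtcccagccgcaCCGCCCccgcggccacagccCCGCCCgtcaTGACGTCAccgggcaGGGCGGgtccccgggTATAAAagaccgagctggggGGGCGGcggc
TUBB4B, chr9:137241037-137241286, plus strand: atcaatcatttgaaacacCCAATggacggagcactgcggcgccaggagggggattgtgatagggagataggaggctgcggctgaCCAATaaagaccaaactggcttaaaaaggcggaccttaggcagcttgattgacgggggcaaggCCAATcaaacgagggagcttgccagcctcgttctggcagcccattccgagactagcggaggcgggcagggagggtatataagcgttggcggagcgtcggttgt
TUBA1A, chr12:49189081-49189330, minus strand: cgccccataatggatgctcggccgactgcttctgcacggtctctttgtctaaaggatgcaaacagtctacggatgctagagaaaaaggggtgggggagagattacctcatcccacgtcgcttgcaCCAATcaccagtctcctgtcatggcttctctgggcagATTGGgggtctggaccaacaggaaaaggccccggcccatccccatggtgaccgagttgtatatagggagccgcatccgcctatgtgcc
TUBB4A, chr19:6502310-6502559, minus strand: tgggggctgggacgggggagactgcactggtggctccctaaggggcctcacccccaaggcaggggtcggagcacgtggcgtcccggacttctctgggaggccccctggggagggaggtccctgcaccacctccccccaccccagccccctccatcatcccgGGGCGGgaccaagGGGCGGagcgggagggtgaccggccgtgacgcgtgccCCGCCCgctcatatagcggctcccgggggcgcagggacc
TUBB2A held 5 GC boxes, a TATA box 30 bases before the start and a cyclic AMP response element 60 bases before it. TUBB4B held 3 CCAAT boxes and TUBA1A held 2, and the TUBB4A window held 3 GC boxes. The printed TUBB4A window is 1 of its 2 RefSeq starts, the one at base 6502309. Motifs did not overlap in these windows.

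All 10 tubulins had at least 1 RefSeq promoter window, 16 in all, searched on both strands over 250 bases before and 50 bases after the start. A GC box was in 8 of 10 tubulins and in 45% of all 35116 RefSeq promoter windows, and a CCAAT box in 8 of 10 and in 34.6%. Counted by window, as for all promoters, each of these motifs was in 10 of the 16 tubulin windows. The TATA box and the cyclic AMP response element were in TUBB2A alone, against 11.5% and 1.85% of all windows. An AP-1 element (TGANTCA) was in TUBB3 alone, against 7.71%, and a heat shock element (GAANNTTC) in TUBA1C and TUBB, against 6.77%. A C/EBP-ATF element (TGATGNAA, 3.62% of all windows) and an SRF CArG box (1.29%) were in none of the windows of the 10 genes. A gene with several windows had more chances to hold a motif than a single window, and a match is a stretch of letters, not a site shown to be bound.

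Of the other genes of tubulin folding and microtubules, taken from lists of 110 genes, 90 rows were tested, of which 23 were called higher, 7 lower and 60 not called. Of all tested genes 22.9% were called higher and 15.6% lower. With median-of-ratios scaling the list counts stayed at 23 higher and 7 lower. They moved to 12 higher and 12 lower with TPM, 7 and 11 with quantile normalization, and 7 and 14 with equal fragment totals. With GC correction they were 29 and 21. The counts over all genes moved too, from 3046 higher and 2072 lower to 2320 and 2673 with TPM. They were 2242 and 2509 with quantile normalization, 2010 and 3136 with equal fragment totals, and 4015 and 3591 with GC correction. List counts under each setting are read beside these. Of the 20 called genes that the naming rule took from these lists, 7 kept their call in every alternative in which they were tested: MAP1B, TUBE1, TUBB1, TUBD1, VASH1, TTLL4 and TUBGCP3.

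Among the other tubulins 5 of 12 were tested, with 1 higher and 2 lower (median log2 difference -0.325, against 0.05 for all tested genes). These counts stand beside 22.9% higher and 15.6% lower among all tested genes. TUBE1, the epsilon tubulin of centrioles, averaged 7.83 ± 1.57 FPKM with CuB and 3.075 ± 0.282 FPKM with DMSO and was higher by 1.10 (SE 0.14, adjusted p = 0.00117). TUBD1, the delta tubulin of centrioles, averaged 2.29 ± 0.214 FPKM with CuB and 3.57 ± 0.21 FPKM with DMSO, a log2 difference of -0.48 (SE 0.10, adjusted p = 0.00862), called lower. TUBB1, the beta tubulin of platelets, averaged 0.525 ± 0.11 FPKM with CuB and 1.55 ± 0.35 FPKM with DMSO, a log2 difference of -0.74 (SE 0.15, adjusted p = 0.00771), called lower. It was under 1 FPKM with CuB, from 81 fragments, and passed the filter through its DMSO samples, from 256 fragments. TUBG1 and TUBG2, the gamma tubulins that nucleate microtubules, were not called. TUBG2 averaged 5.64 ± 0.821 FPKM with CuB and 7.31 ± 0.922 FPKM with DMSO and was called lower with TPM, quantile normalization, equal fragment totals and GC correction (log2 difference -0.47 to -0.40), which made the count 3 lower under each.

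The chaperonin and prefoldin subunits, which fold new tubulin and actin chains, had 8 of 14 called higher and 1 lower (median log2 difference 0.29). Of all tested genes 22.9% were called higher and 15.6% lower with the same scaling. CCT5 averaged 115 ± 1.56 FPKM with CuB and 89.2 ± 1.76 FPKM with DMSO, a log2 difference of 0.37 (SE 0.06, adjusted p = 0.00395), and CCT4 averaged 170 ± 9.43 FPKM with CuB and 131 ± 10.3 FPKM with DMSO, a log2 difference of 0.37 (SE 0.08, adjusted p = 0.0126). CCT6A averaged 160.2 ± 4.29 FPKM with CuB and 127 ± 8.59 FPKM with DMSO, a log2 difference of 0.34 (SE 0.07, adjusted p = 0.0112), and the prefoldin subunit PFDN2 averaged 299 ± 22 FPKM with CuB and 217 ± 38.9 FPKM with DMSO, a log2 difference of 0.47 (SE 0.13, adjusted p = 0.0265). The 1 subunit called lower was PFDN5, at 24.7 ± 2.24 FPKM with CuB and 31.2 ± 0.775 FPKM with DMSO (log2 difference -0.33, adjusted p = 0.0235). Under TPM the counts were 3 higher and 2 lower, and under quantile normalization or equal fragment totals they were 1 higher and 2 lower. CCT4 and CCT6A lost their calls under both quantile normalization and equal fragment totals, CCT5 under quantile normalization, and PFDN2 under TPM and equal fragment totals and without the filter. With GC correction the counts were 8 higher and 3 lower. CCT6A also lost its call without CuB replicate 2 (adjusted p = 0.0558), and PFDN2 without CuB replicate 2, CuB replicate 3, DMSO replicate 1 or DMSO replicate 3 (adjusted p = 0.0801 to 0.0914).

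The folding cofactors that join alpha to beta tubulin had 0 of 8 tested rows called by limma (7 genes, TBCE having 2 rows), with 1 at an unadjusted p under 0.05 and 0 by limma-voom. Among all tested genes limma called 22.9% higher and 15.6% lower. With GC correction 1 of the 8, TBCEL, was called lower (-0.30, adjusted p = 0.0238). The 2 with the highest levels were TBCA, at 29.6 ± 5.1 FPKM with CuB and 31.5 ± 2.6 FPKM with DMSO, and TBCB, at 21.7 ± 2.82 FPKM with CuB and 19.75 ± 5.4 FPKM with DMSO. Their log2 differences were -0.10 (SE 0.13, adjusted p = 0.599) and 0.15 (SE 0.19, adjusted p = 0.555), and that of TBCB changed sign with the scaling. TBCB was called higher without DMSO replicate 2 (0.36, adjusted p = 0.0482).

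Of the genes of tubulin autoregulation 3 of 12 were called higher and 0 lower by limma (median log2 difference 0.21; 0 lower at an unadjusted p under 0.05 and 0 lower by limma-voom), beside 22.9% higher among all tested genes. They were subunits of the CCR4-NOT deadenylase, CNOT1 (35.6 ± 1.81 FPKM with CuB and 27.4 ± 2.49 FPKM with DMSO), CNOT3 (16.1 ± 1.63 FPKM with CuB and 10.7 ± 1.95 FPKM with DMSO) and CNOT9 (18.05 ± 0.627 FPKM with CuB and 14.75 ± 0.353 FPKM with DMSO). Their log2 differences were 0.37 (SE 0.09, adjusted p = 0.0185), 0.56 (SE 0.14, adjusted p = 0.018) and 0.27 (SE 0.07, adjusted p = 0.0242), and none of the 3 was called under quantile normalization or equal fragment totals, nor CNOT1 and CNOT9 under TPM (adjusted p = 0.0557 and 0.104). The call was also lost for CNOT1 without CuB replicate 1 or CuB replicate 2 (adjusted p = 0.0539 to 0.0756), for CNOT3 without CuB replicate 2, CuB replicate 3, DMSO replicate 1 or DMSO replicate 3 (adjusted p = 0.0578 to 0.0692) and for CNOT9 without CuB replicate 1, CuB replicate 2, CuB replicate 3, DMSO replicate 1 or DMSO replicate 3 (adjusted p = 0.0529 to 0.113). The recognition factor TTC5 averaged 2.55 ± 0.212 FPKM with CuB and 2.04 ± 0.0903 FPKM with DMSO and its partner SCAPER 1.07 ± 0.121 FPKM with CuB and 1.07 ± 0.124 FPKM with DMSO. Neither was called, with log2 differences of 0.22 (SE 0.10, adjusted p = 0.111) and -0.0015 (SE 0.12, adjusted p = 0.994).

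**Figure D5:**
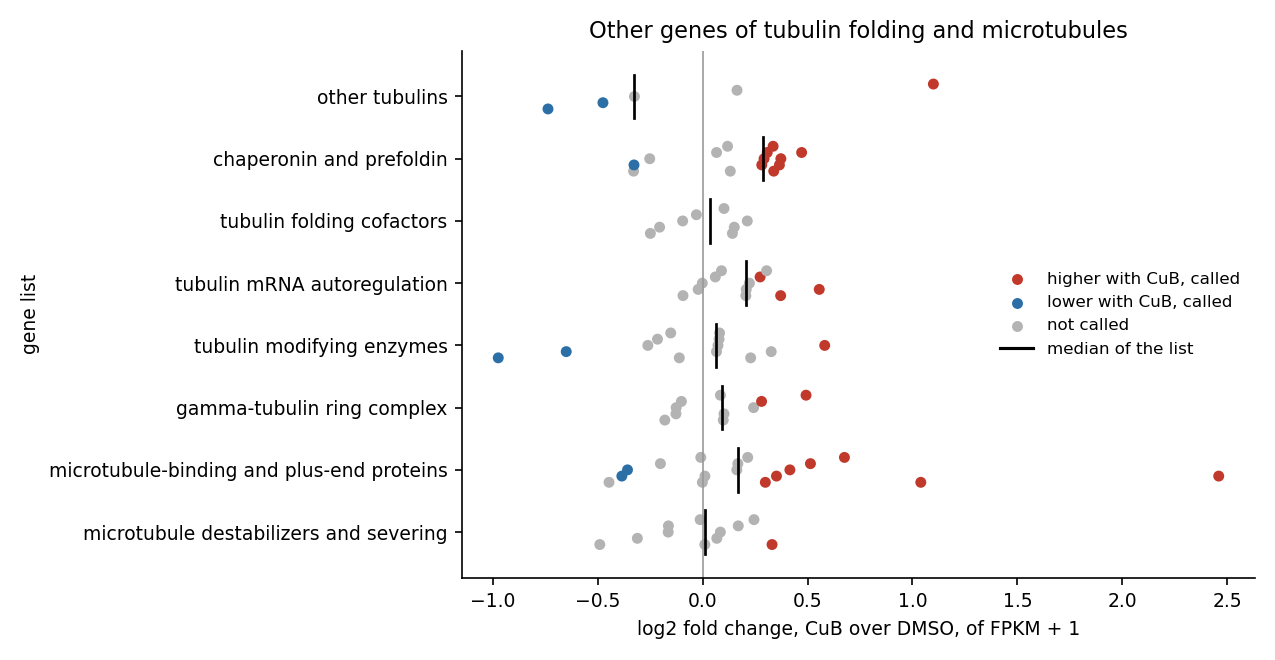
Log2 difference of FPKM + 1, CuB minus DMSO, of each tested gene in the microtubule lists, with 1 point per gene, coloured by call, and a bar at each list's median. MAP1B is the rightmost point at 2.46, and 8 of the 14 chaperonin and prefoldin points are called higher, beside 22.9% of all tested genes.

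Of the tubulin modifying enzymes 13 of 19 were tested, with 1 higher and 2 lower (median log2 difference 0.07). These counts, and those of the gamma-tubulin ring complex below, stand beside 22.9% higher and 15.6% lower among all tested genes. VASH1, which removes the last tyrosine of alpha tubulin, averaged 1.71 ± 0.234 FPKM with CuB and 4.36 ± 0.884 FPKM with DMSO, a log2 difference of -0.97 (SE 0.14, adjusted p = 0.00225), called lower. TTLL4, which adds glutamates, averaged 9.68 ± 0.781 FPKM with CuB and 6.12 ± 0.0751 FPKM with DMSO, a log2 difference of 0.58 (SE 0.08, adjusted p = 0.00222), called higher. TTLL1, a polyglutamylase subunit, averaged 1.42 ± 0.535 FPKM with CuB and 2.73 ± 0.184 FPKM with DMSO, a log2 difference of -0.65 (SE 0.18, adjusted p = 0.0265), a call lost without the filter and without DMSO replicate 1 or DMSO replicate 3 (adjusted p = 0.0583 to 0.0853). The list counts were 1 higher and 3 lower with TPM, 1 and 4 with equal fragment totals, and 2 and 4 with GC correction. The gamma-tubulin ring complex had 2 of 10 called higher and 0 lower by limma (0 lower at an unadjusted p under 0.05 and 0 lower by limma-voom; median log2 difference 0.09). TUBGCP3 averaged 17.9 ± 0.237 FPKM with CuB and 12.45 ± 0.43 FPKM with DMSO, a log2 difference of 0.49 (SE 0.07, adjusted p = 0.00225), and TUBGCP2 averaged 16.9 ± 0.765 FPKM with CuB and 13.75 ± 1.25 FPKM with DMSO, a log2 difference of 0.28 (SE 0.09, adjusted p = 0.0462), the second call being lost in 11 of 20 alternatives, among them without CuB replicate 1, CuB replicate 2, CuB replicate 3, DMSO replicate 1 or DMSO replicate 3 (adjusted p = 0.0646 to 0.144). With GC correction 3 of the 10 were called higher and 2 lower, and with TPM, quantile normalization or equal fragment totals 1 higher and 0 lower.

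The proteins that bind microtubules or their plus ends had 7 of 17 tested members called higher and 2 lower (median log2 difference 0.17), beside 22.9% higher and 15.6% lower among all tested genes. The counts were 5 higher and 3 lower with TPM, 3 and 3 with quantile normalization, 3 and 4 with equal fragment totals, 9 and 4 with GC correction, and 3 and 0 of 21 tested without the filter. MAP1B, a microtubule stabilizer known from growing axons, averaged 40.4 ± 4.03 FPKM with CuB and 6.495 ± 0.6 FPKM with DMSO, 6.22-fold, a log2 difference of 2.46 (SE 0.11, adjusted p = 1.22e-05). MAP1S averaged 22.3 ± 4.51 FPKM with CuB and 10.7 ± 4.33 FPKM with DMSO, a log2 difference of 1.04 (SE 0.26, adjusted p = 0.0199), and MAP7D1 averaged 45.4 ± 8.96 FPKM with CuB and 28.25 ± 7.52 FPKM with DMSO, a log2 difference of 0.68 (SE 0.21, adjusted p = 0.0406). CAMSAP2, which holds minus ends, averaged 35.6 ± 3.95 FPKM with CuB and 24.7 ± 3.77 FPKM with DMSO, a log2 difference of 0.51 (SE 0.14, adjusted p = 0.0229). The calls of MAP1S, MAP7D1 and CAMSAP2 were all lost when the filter was dropped. MAP7D1 lost its call with TPM (adjusted p = 0.07), quantile normalization (0.105) and equal fragment totals (0.0968) too, and CAMSAP2 with quantile normalization (0.158) and equal fragment totals (0.0731). Among samples left out, the calls were lost for MAP1S without CuB replicate 2, CuB replicate 3, DMSO replicate 1 or DMSO replicate 3 (adjusted p = 0.0552 to 0.0697), for MAP7D1 without CuB replicate 2, CuB replicate 3, DMSO replicate 1 or DMSO replicate 3 (adjusted p = 0.113 to 0.12) and for CAMSAP2 without CuB replicate 1 or CuB replicate 2 (adjusted p = 0.0648 to 0.0734). Of the destabilizers and severing proteins 1 of 11 was called higher and 0 lower by limma (1 lower at an unadjusted p under 0.05, 0 lower by limma-voom; median log2 difference 0.01). The counts were 0 higher and 1 lower with TPM, quantile normalization or equal fragment totals, and 2 higher and 4 lower with GC correction. The gene called higher was KATNA1, the catalytic subunit of katanin, at 8.704 ± 0.504 FPKM with CuB and 6.72 ± 0.507 FPKM with DMSO, a log2 difference of 0.33 (SE 0.09, adjusted p = 0.0249), a call lost with TPM, quantile normalization and equal fragment totals and without CuB replicate 1, CuB replicate 2 or DMSO replicate 1 (adjusted p = 0.0677 to 0.0944). The 2 with the highest levels were not called: STMN1, which binds free dimers, averaged 42.1 ± 4.93 FPKM with CuB and 52.5 ± 6.87 FPKM with DMSO, a log2 difference of -0.31 (SE 0.13, adjusted p = 0.0939), and KIF2C, a depolymerizing kinesin, averaged 39.3 ± 0.772 FPKM with CuB and 34.8 ± 1.27 FPKM with DMSO, a log2 difference of 0.17 (SE 0.07, adjusted p = 0.0961). STMN1 was called lower with TPM, quantile normalization, equal fragment totals and GC correction and without DMSO replicate 2 (-0.42, adjusted p = 0.0201), KIF2C was called higher with GC correction (0.12, adjusted p = 0.0467), and KIF2C changed sign under quantile normalization.

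The genes outside the 10 whose log2(FPKM + 1) followed the log2 summed tubulin FPKM most closely over the 6 libraries were ZNF319 (Pearson r = 0.9992), PKD1P6 (0.9990), EIF5A (0.9985), CKAP4 (0.9982) and RANGAP1 (0.9980). These are the highest values among all tested genes, over 6 points that share libraries and the group difference, and are given as a description only.

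Several tubulin rows share sequence or position with others, which bears on how fragments were assigned. Windows of 75 bases were cut from the main transcript of each gene, not from all its exons. The share found in any other annotated gene was 0% for TUBB6, 8.57% for TUBB4B, 19.2% for TUBB4A and 22.6% for TUBB. It was 32.4% for TUBA1A, 34.3% for TUBA1C and 77.2% for TUBA1B. For TUBB6 the transcript holds 2064 bases, where all annotated exons hold 4117. Its windows thus show none of the 837 exonic bases shared with AFG3L2, whose fragments cannot be told apart without strand. Among the alpha genes, windows found in another of the tubulins described here made up 42.2% for TUBA1B, 32.4% for TUBA1A and 17% for TUBA1C. For TUBA1A the largest overlap was with TUBA1B, at 22.4%. How the alpha genes share fragments is therefore uncertain. For TUBA1B the largest overlap was with the antisense gene AC011603.2 at 66.6%, which held 9 fragments with CuB and 5 with DMSO. For TUBA1C and TUBB it was with the antisense genes AC125611.3, at 0 in all libraries, and AL662797.1, with 3 fragments with CuB and 4 with DMSO. TUBB4A shared 520 and 296 exonic bases with AC010503.1 and AC010503.2, both at 0 in all libraries. RF00017, AC010173.1 and AC092143.2 lie within the span of a tubulin gene or overlap it but share 0 exonic bases with it. TUBB4B shared 124 exonic bases with FAM166A, which held 0 fragments with CuB and 3 with DMSO. Pseudogenes were taken by name, as a tubulin described here followed by P and a number. This gave 19 rows, all of beta tubulins, and pseudogenes with other names were not looked at. The highest was TUBBP1 at 2.02 ± 0.413 FPKM with CuB and 1.78 ± 0.433 FPKM with DMSO (adjusted p = 0.577 by limma). The next, TUBB2BP1, held 4 fragments with CuB and 0 with DMSO.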

How the data were processed

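The values deposited by the authors are FPKM of 58735 genes in 3 CuB and 3 DMSO samples. Each library started from 1 µg of total RNA and a TruSeq kit that does not mark strand, per the labels' protocols. The build named is GRCh38, per the submitters' processing notes. Which aligner, counting tool and library-size scaling were used is not given in the sources. Gene identifiers and coordinates matched GENCODE 29 for all 58735 genes.

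Fragments were recovered from the smallest step between a library's FPKM values and came out whole, within 0.01 of a fragment, for 100% of values above 0. Groups were compared with limma 3.58.1 in R 4.3.3 on log2(FPKM + 1) with an intensity trend, for genes averaging 1 FPKM or more, with Benjamini-Hochberg adjustment over 13273 genes and a threshold of 0.05. The replicate number was not used as a block. The table holds no raw counts, so limma-voom on the recovered fragments is an alternative only. For sums and shares the difference of group means was tested by exact permutation, two-sided, adjusted over 14 measures.

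The test was first tested on simulated data with known changes, in 10 runs with 200 changed genes each. It recovered 29.9% of 1.5-fold changes, 83.8% of 2-fold changes and 94.6% of 4-fold changes, and 6.45% of its calls were false. A gene that differs by 1.5-fold can thus go uncalled. The simulation changed far fewer genes than the 5118 called here. Replicates of a group differed by more than sampling noise (chi-square per degree of freedom 2.93 to 27.4), so each counted as 1 sample. This value was 2.93 for DMSO replicates 1 and 3. It was 19.9 and 27.4 for DMSO replicate 2 against DMSO replicates 1 and 3. Between CuB replicates it was 4.06 to 18.3.

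The members and lists were chosen with earlier results of these data known. The text names all 10 tubulins, the genes whose span overlaps one, the 2 highest pseudogenes that carry their names, and the 5 genes most alike. From each list it names up to 4 called genes with the largest differences, or the 2 with the highest mean where fewer than 2 were called. TTC5, SCAPER, TUBG1, TUBG2, PFDN5, TBCEL, S100B and S100A1 were added after their values were seen. Alternatives were other scalings, pseudocounts, filters, limma settings, a GC correction (GC content known for 99.94% of tested genes), a replicate block and leaving out each sample. Sequence work used Python 3.11.15 and Biopython 1.88, and plots matplotlib 3.10.9.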

Additional observations from a re-analysis of the deposited data

How the results depend on the processing

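Of the 20 alternatives run across all genes, the log2 difference of TUBB changed sign in 3, to -0.116 with equal fragment totals, -0.028 with quantile normalization and -0.0542 with TPM. The count of tubulins called lower was 1 with a filter of 5 FPKM, which leaves TUBB4A untested, and 2 in all other alternatives, and the count called higher was 4 to 6. Over all genes the number called higher was 2010 with equal fragment totals and 1965 to 3443 when 1 sample was left out, the lowest without CuB replicate 2. The number called lower was 3591 with GC correction, 3402 with GC correction and the replicate block, 3136 with equal fragment totals, 985 with a filter of 5 FPKM, and 1297 to 2312 when 1 sample was left out, at 1297 without CuB replicate 2 and 1359 without DMSO replicate 1. Over the microtubule lists the number called higher was 7 with equal fragment totals, 7 with quantile normalization, 12 with TPM, 15 with no filter and 8 to 26 when 1 sample was left out. The number called lower was 21 with GC correction, 16 with GC correction and the replicate block, 14 with equal fragment totals, 11 with quantile normalization, 12 with TPM, 2 with a filter of 5 FPKM and 3 to 11 when 1 sample was left out. The share of TUBA1B, 0.508 percentage points lower with CuB, was 0.98 points higher within the alpha class, and -1.35 to 0.645 points different when 1 sample was left out, higher without CuB replicate 1 or DMSO replicate 2. Log2 differences of genes that were not called also changed sign: KIF2C was -0.0423 with quantile normalization, TBCB was -0.00649 with equal fragment totals and -0.0293 with quantile normalization, and PSMG4 was 0.0271 with quantile normalization and -0.155 to 0.0509 when 1 sample was left out, above 0 without DMSO replicate 2. The cause of these changes was not tested, beyond the smaller number of genes under the stricter filter. Whether same-numbered samples pair could not be settled, since deviations from means of 3 samples constrain each other. The correlations of deviations were 0.269, 0.118 and -0.357 for the same number, and -0.494 to 0.469 for other numbers. With the replicate block 6 tubulins were called higher and 2 lower, and 2647 and 1796 of all genes. The block ended the calls of AFG3L2, CNOT9, KATNA1 and TUBGCP2. Among the 10 tubulins, TUBB3 and TUBB4A rest on the fewest fragments, 141 and 127 in their lower groups, and 3 samples a group cannot take the sums and shares below an exact permutation p of 0.1.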
